A study of Mus musculus with 2 samples.

Results

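Fatty acid uptake, storage and beta-oxidation were followed here through 41 mouse genes, listed by symbol and found in the gene tables by gene identifier without its version. All 41 of 41 were found, among 43346 mouse genes of which 21474 are protein-coding, and they were put into 5 steps: uptake (6 genes), activation (8), the carnitine shuttle (7), oxidation (17) and the lipid store (3). Expression was measured by RNA sequencing in whole hearts of newborn mice (postnatal day 0) of strain B6NCrl, with no treatment and no altered allele named in the labels. For each of the 2 libraries, 13 pg of total RNA longer than 200 nt were used, which the labels call 1 cell-equivalent, by a Smart-seq protocol, an amplification of full-length cDNA from very little RNA. Replicate 1 is the heart of pup 1 and replicate 2 the heart of pup 3; both carry 1 donor identifier. The libraries form 1 group, so the design holds no contrast between conditions, and the comparison it implies is how alike the hearts of separate pups look at this input. A difference between the libraries joins the pup, the RNA aliquot and the amplification, which cannot be told apart, and the SD of 2 libraries may be technical. In whole tissue, fewer cells of a type and less RNA per cell cannot be told apart either.

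Heart muscle takes fatty acids from circulating triglyceride that lipoprotein lipase splits at the capillary wall, binds them inside the cell, and activates them to acyl-CoA. Long-chain acyl groups enter mitochondria as carnitine esters, where repeated rounds of dehydrogenation, hydration, a second dehydrogenation and thiolysis release acetyl-CoA, with electrons leaving through the electron transfer flavoprotein. Around birth the heart is known to turn from glucose and lactate towards fatty acids as fuel, and fatty acids that are not burned are kept as triglyceride in droplets coated by perilipins. The nuclear receptors of the PPAR and ERR families are known regulators of many of these genes.

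Promoter windows of 300 bases (250 before the first base of the gene and 50 after it) were taken from RefSeq on GRCm38.p6, and 32 of the 41 genes had an entry. Of these windows, 5 are shown because the results below turn on the genes: Fabp3 is the most abundant member, Acot1 and Acot2 are neighbours with opposite differences between the libraries, Hadhb shares its start region with Hadha, and Acadm is the abundant member whose window holds a nuclear receptor motif. All are written 5′ to 3′ along the gene's own strand, in lower case. Capitals mark a CCAAT box (CCAAT, or ATTGG for the other strand) or an extended nuclear receptor half-site (AAGGTCA, or TGACCTT for the other strand); both strands were searched and these motifs do not overlap in the windows shown. The windows are Fabp3 at chr4:130308488-130308787 on the plus strand, Acadm at chr3:153944594-153944893 on the minus strand, Hadhb at chr5:30155003-30155302 on the plus strand, Acot1 at chr12:84009252-84009551 on the plus strand and Acot2 at chr12:83987611-83987910 on the plus strand.
Fabp3: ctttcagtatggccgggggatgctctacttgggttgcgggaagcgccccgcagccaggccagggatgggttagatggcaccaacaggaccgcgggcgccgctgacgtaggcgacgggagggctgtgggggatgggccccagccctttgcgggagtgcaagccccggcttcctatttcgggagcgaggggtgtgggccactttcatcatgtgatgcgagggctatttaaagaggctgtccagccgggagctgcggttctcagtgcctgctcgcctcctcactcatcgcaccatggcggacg
Acadm: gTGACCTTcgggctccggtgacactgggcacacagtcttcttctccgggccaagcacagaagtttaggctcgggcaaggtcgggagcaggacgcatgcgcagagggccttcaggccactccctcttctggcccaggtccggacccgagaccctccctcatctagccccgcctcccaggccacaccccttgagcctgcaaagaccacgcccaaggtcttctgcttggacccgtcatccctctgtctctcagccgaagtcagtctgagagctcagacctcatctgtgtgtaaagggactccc
Hadhb: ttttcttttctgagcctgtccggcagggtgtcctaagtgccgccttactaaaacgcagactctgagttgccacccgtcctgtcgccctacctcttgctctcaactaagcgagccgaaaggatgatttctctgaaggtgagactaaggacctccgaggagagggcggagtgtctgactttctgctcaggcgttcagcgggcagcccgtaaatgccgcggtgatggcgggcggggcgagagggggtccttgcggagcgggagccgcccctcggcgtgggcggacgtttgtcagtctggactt
Acot1: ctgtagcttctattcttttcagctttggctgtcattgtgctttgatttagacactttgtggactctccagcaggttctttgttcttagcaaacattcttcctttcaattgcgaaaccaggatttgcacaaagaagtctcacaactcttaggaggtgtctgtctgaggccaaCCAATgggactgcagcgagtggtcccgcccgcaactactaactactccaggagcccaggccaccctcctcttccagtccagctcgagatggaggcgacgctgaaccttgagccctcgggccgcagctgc
Acot2: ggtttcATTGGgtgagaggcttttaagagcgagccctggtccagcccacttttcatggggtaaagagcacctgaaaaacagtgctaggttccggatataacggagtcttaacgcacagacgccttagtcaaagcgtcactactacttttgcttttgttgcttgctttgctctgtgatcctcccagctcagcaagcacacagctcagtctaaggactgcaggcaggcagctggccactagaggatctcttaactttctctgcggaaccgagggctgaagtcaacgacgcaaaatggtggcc

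CCAAT was found in 37.4% of 32851 promoter windows of this length, and in 21 of the 38 windows of the members, which belong to 19 of the 32 genes with an entry. AAGGTCA was found in 4.72% of all windows and in 3 of the 38, those of Acacb, Acadm and Acsl6. In the Fabp3 and Hadhb windows neither run of letters occurs. A match is a description of letters and no measure of binding. Hadha and Hadhb, the subunits of the mitochondrial trifunctional protein, lie head to head on chromosome 5: their first bases in RefSeq are 273 bases apart on opposite strands, so that 228 bases of the 2 windows are the same stretch. The windows of Acot1 and Acot2, which lie side by side on chromosome 12, were 56.8% identical over 271 aligned bases, with 58 further gap columns.

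Replicate 1 held 40648662 expected counts and replicate 2 33173354, of which 39671930 and 32751851 lay on mouse genes. Expected counts are reads shared out among genes by estimation, so they need not be whole. Levels are given as TPM, transcripts per 1000000 scaled by effective length, over mouse genes. Where a gene has 0 counts, its share can still be as high as 3 counts, that is 0.0756 counts per 1000000 (CPM) in replicate 1 and 0.0916 in replicate 2. This limit is for counting error only, and no molecular identifiers are named in the labels. The heart label was checked against cell type markers: 6 of 6 cardiomyocyte markers reached 1 TPM in both libraries, with a summed level of 32477 TPM in replicate 1 and 45293 in replicate 2. Endothelial markers were read for 7 of 7 genes (634 and 451 TPM summed) and fibroblast markers for 5 of 5 (1010 and 878 TPM), while 3 of 6 macrophage markers were read in both libraries (166 and 111 TPM) and Cd68 was at 0. All 7 adipocyte markers, Adipoq, Lep, Retn, Cfd, Plin1, Cidec and Ucp1, had 0 counts in both libraries, as had the epidermal keratins Krt5, Krt14 and Krt10 and the liver genes Alb, Afp and Apoa1. The remaining liver marker, Ttr, stood at 0.719 and 0.358 TPM.

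In the newborn heart nearly the whole route from capillary to acetyl-CoA was present in the RNA. Of the 41 genes, 36 reached 1 TPM in both libraries, as did 28.4% of all protein-coding genes. Their summed share of TPM was 1.67% (replicate 1) and 1.94% (replicate 2), with a mean of 1.81 ± 0.193% (SD, n = 2). Uptake and oxidation made up most of it, at 0.822 ± 0.169% and 0.819 ± 0.0137% of TPM. Activation took 0.0791 ± 0.0129%, the carnitine shuttle 0.0618 ± 0.00429% and the lipid store 0.0233 ± 0.00124%. The activation step joins the Acsl synthetases with the thioesterases Acot1, Acot2 and Acot13, which take the CoA off again. Its highest mean was that of the thioesterase gene Acot13 (364 TPM), against 190 TPM for Acsl1, so its share is no measure of activation alone. Of the 41, 24 averaged 100 TPM or above and 4 averaged 1000 TPM or above (Fabp3, Etfb, Acaa2 and Acadl), and 19 were among the 500 highest of 21461 nuclear protein-coding genes.

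**Figure D1:**
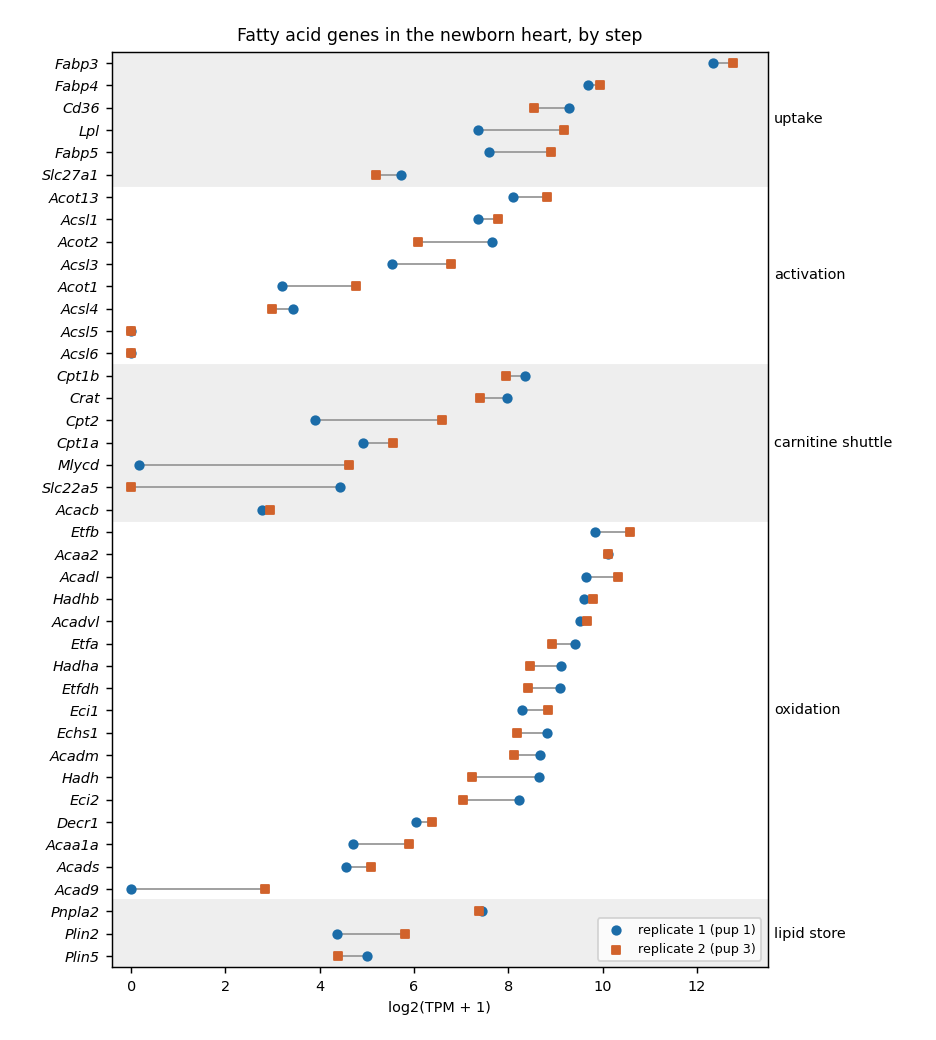
Level of each of the 41 genes in both libraries, as log2(TPM + 1) on the horizontal axis, with genes grouped by step and ordered by mean within a step. Circles are replicate 1 (pup 1), squares replicate 2 (pup 3), and a line joins the libraries of a gene; uptake and oxidation genes fill the upper range, with Fabp3 highest at 5170 and 6963 TPM, and Acsl5 and Acsl6 are at 0 in both libraries.

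Fabp3, the fatty acid binding protein of heart and skeletal muscle (chromosome 4, 130308595 to 130315463, plus strand, mm10), dominated uptake. It stood at 5170 TPM in replicate 1 and 6963 in replicate 2 (6066 ± 1268, n = 2), the eighth highest mean of all nuclear protein-coding genes. By itself it made up 31.0% of the members' TPM in replicate 1 and 35.9% in replicate 2, and the remaining 40 genes came to 1.15% and 1.25% of all TPM. Fabp4, the adipocyte and endothelial form, had 828 and 989 TPM (909 ± 114). Fabp5, the epidermal form that endothelium also uses, had 190 and 481 TPM, a difference of 2.52-fold. The order Fabp3, Fabp4, Fabp5 was the same in both libraries: Fabp3 exceeded Fabp4 by 2.73 ± 0.12 on the log2 scale, Fabp3 exceeded Fabp5 by 4.30 ± 0.64, and Fabp4 exceeded Fabp5 by 1.58 ± 0.76. The adipocyte markers were all at 0 in the libraries that held Fabp4 at these levels, and the endothelial markers were summed at 634 and 451 TPM; their part in the Fabp4 level was not tested.

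Pairs of related genes were described as different when the log2 ratio within a library had 1 sign in both and its mean exceeded 2 SD, on log2(TPM + 1). Of 22 pairs 12 passed this rule in TPM and 20 had 1 sign, 11 passed in expected counts that are not divided by length, and 10 passed in both. Among those 10 is Etfa over Etfdh, which passed with opposite signs, 0.42 in TPM and −0.38 in counts. The rule is no test: an exact sign test of 2 libraries cannot reach a p under 0.05. Fabp4 over Fabp5 passed in TPM and not in counts (1.56 ± 0.86).

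Cd36, the fatty acid translocase of the cell membrane (chromosome 5, 17781690 to 17888801, minus strand), had 625 TPM in replicate 1 and 370 in replicate 2 (497 ± 180). Lpl, lipoprotein lipase, showed the larger difference of the step, at 164 TPM (replicate 1) and 581 TPM (replicate 2), 3.53-fold in TPM and 2.92-fold in CPM. Slc27a1, the transport protein FATP1 of the cell membrane, was the least abundant at 52.2 and 35.6 TPM. All 6 uptake genes were read in both libraries, and Lpl and Fabp5 were the 2 that lay over 2-fold apart, both higher in replicate 2.

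Long-chain fatty acids are activated by the acyl-CoA synthetases of the Acsl family, and 1 form led. Acsl1, the main synthetase of heart and fat, had 162 TPM in replicate 1 and 218 in replicate 2 (190 ± 39.2). Acsl3, which sits on the endoplasmic reticulum and on droplets, had 45.5 and 110 TPM, and Acsl4, which prefers arachidonate, 9.81 and 6.93 TPM. Acsl1 exceeded Acsl3 by 1.40 ± 0.59 on the log2 scale and Acsl4 by 4.35 ± 0.61. Acsl5 and Acsl6 had 0 counts in both libraries, at or under the limit of 3 counts, while Acsl1 had 19797 and 22069 counts. Per effective length, Acsl1 was at least 5325-fold and 6061-fold higher than Acsl5 and at least 4280-fold and 4872-fold higher than Acsl6 in replicates 1 and 2. That bound rests on 3 counts per library and on counting error alone, and Slc22a5 and Acad9, given below, show that 1 library can hold 0 counts of a gene that the other one read.

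Acyl-CoA thioesterases, which take the CoA off again, behaved unlike each other between the pups. Acot13, the small mitochondrial thioesterase, was the most abundant member of the activation step at 274 and 454 TPM (364 ± 127). Acot2, the mitochondrial type I enzyme (chromosome 12, 83987861 to 83993873, plus strand), had 199 TPM in replicate 1 and 67.3 in replicate 2, 2.93-fold lower. Acot1, its cytosolic neighbour (84009490 to 84018371, same strand), had 8.20 and 26.3 TPM, 2.96-fold higher. Acot2 was the higher of the pair in both libraries, by 4.44 on the log2 scale in replicate 1 and 1.33 in replicate 2, but the mean did not exceed 2 SD. Of the 100-base windows of the annotated transcripts, 17.1% for Acot2 and 12.4% for Acot1 also occur in another gene of the tables, chiefly in each other. Part of their reads is therefore divided by estimation, which adds uncertainty to both levels. The posterior SD of the count, a deposited score of certainty, was 0.97% and 1.06% of the count for Acot1 in replicates 1 and 2. For Acot2 it was 0.016% and 0.29%.

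At the carnitine shuttle the muscle form of the entry enzyme was well above the liver form. Cpt1b, the muscle carnitine palmitoyltransferase of the outer membrane, had 327 TPM in replicate 1 and 247 in replicate 2 (287 ± 56.2). Cpt1a, the liver form, had 29.1 and 46.1 TPM (mean 37.6). The log2 ratio of Cpt1b over Cpt1a was 3.44 in replicate 1 and 2.40 in replicate 2. Slc25a20, the carnitine-acylcarnitine carrier between the 2 enzymes and not among the 41 genes, had 149 and 137 TPM. Cpt2, the inner membrane enzyme that hands the acyl group back to CoA (chromosome 4), was far apart at 14.0 and 95.7 TPM, 6.43-fold, from 949 and 5476 counts. Crat, carnitine acetyltransferase, stood at 252 and 168 TPM, above Cpt2 in both libraries by 4.07 and 0.81 on the log2 scale.

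The genes that set carnitine supply and the malonyl-CoA brake on carnitine palmitoyltransferase were weak, and 2 of the 3 were read in 1 library far above the other. Slc22a5, the carnitine transporter OCTN2, had 1964 counts and 20.5 TPM in replicate 1 and 0 counts in replicate 2, at least 540-fold higher in replicate 1 by CPM against a floor of 3 counts in replicate 2. Mlycd, malonyl-CoA decarboxylase, had 8 counts and 0.125 TPM in replicate 1 and 1315 counts and 23.7 TPM in replicate 2. Acacb, the acetyl-CoA carboxylase that makes malonyl-CoA at the mitochondrion, had 5.88 and 6.71 TPM. Mlycd and Slc22a5 averaged 11.9 and 10.3 TPM. At 5 to 30 TPM, 68.4% of all genes and 3 of 7 members, both of these among them, were over 2-fold apart. Acacb over the cytosolic form Acaca (not a member, at 1.14 and 11.4 TPM) was 1.69 in replicate 1 and −0.68 in replicate 2 on the log2 scale. Expected counts put Acacb higher in both libraries (2.74 ± 1.05), with 328 and 107 counts for Acaca.

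Oxidation summed to nearly the same share in both libraries. Its 17 genes held 0.810% of TPM in replicate 1 and 0.829% in replicate 2, 16 of 17 were read in both libraries, and 3 of the 16 averaging 5 TPM or above were over 2-fold apart. Of all genes at that level 54.6% were, and of all genes at 300 TPM or above, where most of the oxidation genes lie, 12.8%. Among the acyl-CoA dehydrogenases, which take the first electrons and differ in chain length, Acadl (long chain) had 806 and 1276 TPM (1041 ± 333). Acadvl, the very-long-chain enzyme bound to the inner membrane, had 734 and 820 TPM (777 ± 60.8), and Acadm (medium chain) 406 and 276 TPM (341 ± 91.9). Acads (short chain) was far lower at 22.5 and 33.2 TPM (27.9 ± 7.56).

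Medium-chain Acadm exceeded short-chain Acads by 3.56 ± 0.77 on the log2 scale, whereas Acadvl against Acadl (−0.39 ± 0.36) and Acadl against Acadm (1.60 ± 0.86) did not pass the rule. Acadvl over Acadl was −0.13 in replicate 1 and −0.64 in replicate 2, so Acadvl was the lower in both. Missing the rule does not show that the long-chain forms are equal. The short-chain form lay below the medium-chain one. Acad9, a related dehydrogenase that is needed to assemble respiratory complex I, had 0 counts in replicate 1 and 641 counts and 6.13 TPM in replicate 2, at least 259-fold higher by CPM against a floor of 3 counts. It is the 1 oxidation gene with a mean under 5 TPM.

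The trifunctional protein carries out the remaining reactions on long chains. Hadhb, its thiolase subunit, had 784 and 895 TPM (840 ± 78.4), and Hadha, the hydratase and dehydrogenase subunit, 554 and 350 TPM (452 ± 144). Hadha was below Hadhb in both libraries, by 0.50 and 1.35 on the log2 scale, and the mean did not exceed 2 SD. The subunits form a complex of equal parts, and the start region they share is the one printed for Hadhb above. The Hadha value also depends on the transcript models, as given below. Of Hadhb's 100-base windows, 14.8% also occur in the gene model Gm13910, which was listed at 26.4 and 29.2 TPM.

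Enzymes for shorter acyl chains were abundant too. Echs1, the short-chain enoyl-CoA hydratase, had 454 and 290 TPM (372 ± 116). Hadh, the medium and short chain hydroxyacyl-CoA dehydrogenase, had 400 TPM in replicate 1 and 149 in replicate 2, 2.68-fold lower. Acaa2, the mitochondrial thiolase that ends the cycle, had the smallest difference of the members read, at 1102 and 1116 TPM (1109 ± 10.1). Acaa1a, the thiolase of peroxisomes, had 25.1 and 58.6 TPM, so that the mitochondrial form exceeded it by 4.82 ± 0.83 on the log2 scale. Its paralog Acaa1b was listed at 0 in both libraries, and 7.21% of Acaa1a's windows occur there.

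Unsaturated fatty acids need auxiliary enzymes, of which the isomerases were above the reductase. Eci1, an enoyl-CoA isomerase of mitochondria, had 312 and 456 TPM (384 ± 102). Eci2, the isomerase of mitochondria and peroxisomes, had 301 and 131 TPM, 2.29-fold lower in replicate 2. Eci1 over Eci2 was therefore 0.06 on the log2 scale in replicate 1 and 1.80 in replicate 2. Decr1, the mitochondrial dienoyl-CoA reductase, was lower than both, at 64.8 and 81.96 TPM (73.4 ± 12.1).

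Electrons from the dehydrogenases pass to the electron transfer flavoprotein, whose genes were all among the higher members. Etfb, its beta subunit, had 910 and 1526 TPM (1218 ± 436), Etfa, its alpha subunit, 678 and 486 TPM (582 ± 136), and Etfdh, the oxidoreductase that passes the electrons to ubiquinone, 544 and 340 TPM (442 ± 144). Etfa and Etfb form a heterodimer, and Etfa lay below Etfb by 0.42 and 1.65 on the log2 scale, which did not pass the rule. Etfa exceeded Etfdh per length by 0.42 ± 0.14, and in expected counts, where the longer Etfdh gains, the ratio was −0.38 ± 0.13. This order is thus one of TPM alone.

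The lipid store was read in full, 3 of 3 genes in both libraries. Pnpla2, adipose triglyceride lipase, which starts the breakdown of droplets, was the highest. Over all its transcript models it was nearly equal at 173 and 166 TPM (170 ± 4.86). Plin2, the droplet coat found in most cells, had 19.6 and 55.4 TPM, 2.74-fold, and Plin5, the coat of oxidative tissues that ties droplets to mitochondria, had 31.3 and 19.9 TPM (25.6 ± 8.02). Plin5 was the higher coat gene in replicate 1 and Plin2 in replicate 2, with Plin2 over Plin5 at −0.65 and 1.43 on the log2 scale. The adipocyte coat gene Plin1 had 0 counts in both libraries.

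Between the pups the median log2 ratio of the 38 members averaging 5 TPM or above, replicate 2 over replicate 1, was 0.18, against 0.01 for all 8266 mouse genes at that level. Of the 38, 22 were higher in replicate 2 and 16 in replicate 1. Over 2-fold apart on log2(TPM + 1) were 12 of the 38, where 54.6% of all genes averaging 5 TPM or above were, a share not matched for level. Over 2-fold apart and higher in replicate 2 were 8 of the 38, against 27.7% of all genes averaging 5 TPM or above. These 8 were Lpl, Fabp5, Acsl3, Acot1, Cpt2, Mlycd, Acaa1a and Plin2. Over 2-fold apart and higher in replicate 1 were 4 of the 38 (Acot2, Slc22a5, Hadh and Eci2), against 26.9%. Within 1.5-fold were 17 of the 38, against 29.7% of all genes, a share that is not matched for level. At 300 TPM or more the median absolute log2 ratio was 0.64 for members and 0.45 for all genes. It was 0.58 and 0.59 at 100 to 300 TPM, 1.19 and 0.83 at 30 to 100 TPM, and 0.62 and 2.23 at 5 to 30 TPM. By step, the median log2 ratio was 0.34 for uptake, 0.57 for activation, 0.16 for the carnitine shuttle, 0.09 for oxidation and −0.06 for the lipid store. The activation value joins synthetases and thioesterases. The summed cardiomyocyte markers were higher in replicate 2 (32477 and 45293 TPM) and the summed endothelial ones lower (634 and 451 TPM). The cardiomyocyte sum was led by Actc1 (13940 and 23510 TPM), while Tnnt2 stood at 8730 and 9166 TPM. Of the endothelial markers, Cdh5 (24.9 and 39.4 TPM) and Tie1 (27.0 and 36.7 TPM) were higher in replicate 2 and the others lower. The part of the markers' cell types in the members' values was not tested. Scaling by TMM or DESeq2 factors moved all log2 ratios by −0.07 or −0.11, left the same count of 12 members over 2-fold apart, and turned the sign of Acaa2 alone.

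**Figure D2:**
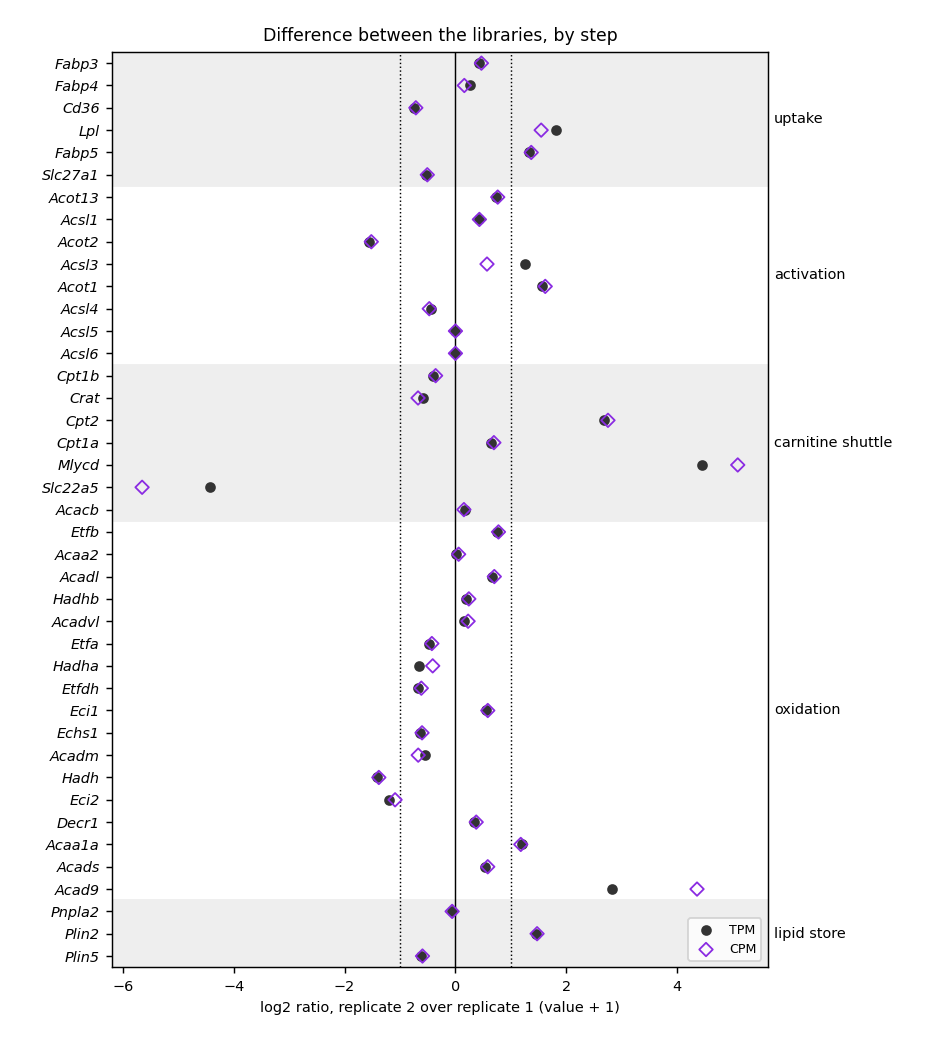
Log2 ratio of replicate 2 over replicate 1 for each gene, with 1 added to each value, from TPM (filled circles) and from CPM (open diamonds), grouped by step. Dotted lines mark 2-fold; 12 genes averaging 5 TPM or above lie outside them in TPM and 11 of these in CPM, Acsl3 being the exception, and Acad9 has a mean under 5 TPM.

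Over all mouse genes, a higher level went with a smaller share over 2-fold apart. Among the members that share was lowest at 300 TPM or more and had no steady order below it. Their median absolute log2 ratios, given above, followed no such order. Of the 17 members at 300 TPM or more, 2 were over 2-fold apart (Lpl and Fabp5), where 12.8% of all genes at that level were. At 100 to 300 TPM it was 3 of 7 (Acot2, Hadh and Eci2) against 24.3%, at 30 to 100 TPM 4 of 7 (Acsl3, Cpt2, Acaa1a and Plin2) against 42.6%, and at 5 to 30 TPM 3 of 7 (Acot1, Slc22a5 and Mlycd) against 68.4%. The shares of a few members are coarse. They lay near or above those of all genes down to 30 TPM and below them at 5 to 30 TPM. The 54.6% of all genes given above is not matched for level, and 24 of the 38 members are at 100 TPM or more. The count of 12 in 38 therefore cannot be read as closer agreement of these genes. Some of the wide differences rest on many reads: Cpt2 had 949 and 5476 counts and Hadh 21845 and 6892. Such reads come from amplified cDNA of 13 pg of RNA and are no count of molecules.

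**Figure D3:**
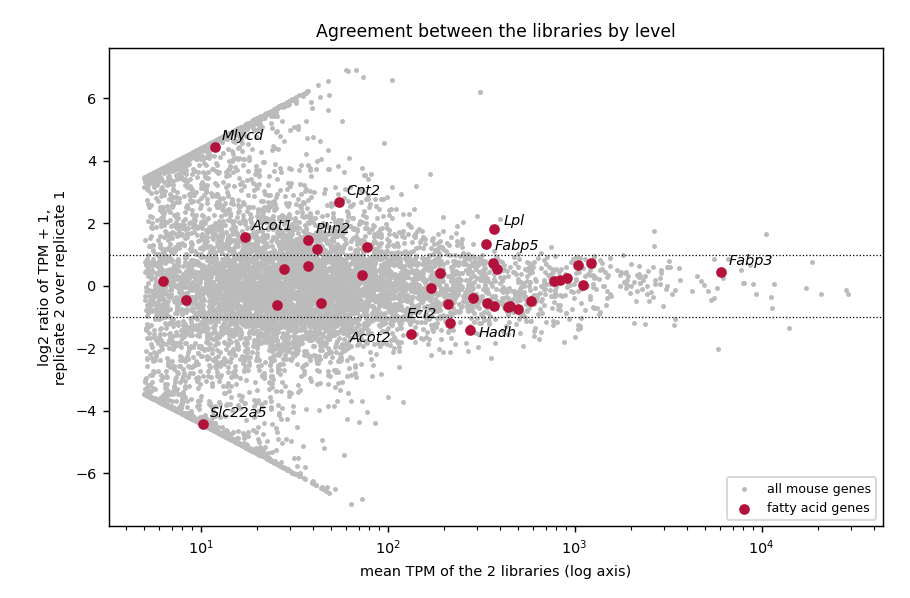
Log2 ratio of TPM + 1, replicate 2 over replicate 1, against the mean TPM of the libraries on a log axis, for the 8266 mouse genes averaging 5 TPM or above (grey) and the 38 fatty acid genes among them (red). Dotted lines mark 2-fold; the grey cloud narrows to the right, Fabp3 is the rightmost fatty acid gene, and Mlycd and Slc22a5 lie on the edges where 1 library is near or at 0.

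Other genes of fatty acid metabolism were counted from a list of 81, of which 80 were found. In both libraries 47 of the 80 reached 1 TPM, against 36 of the 41 members, and 13 were at 0 in both. The highest were Dbi, the acyl-CoA binding protein (434 and 897 TPM), Ech1, a dienoyl-CoA isomerase (628 and 596 TPM), Got2, a mitochondrial aminotransferase that also binds fatty acids (583 and 302 TPM), and Acat1, the acetoacetyl-CoA thiolase (215 and 363 TPM). Caveolin Cav1 (292 and 279 TPM), the sterol carrier gene Scp2 (294 and 216 TPM), Hsd17b10 (232 and 209 TPM) and Gpihbp1, which anchors lipoprotein lipase to capillary endothelium (164 and 227 TPM), followed. Gpihbp1 differed by 1.38-fold, and its partner Lpl by 3.53-fold over all its transcript models, with 120 and 250 TPM on the coding models alone.

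Of the 54 listed genes averaging 5 TPM or above, 28 were over 2-fold apart, where 54.6% of all genes at that level were, so the list lies near the background. Over 2-fold apart and higher in replicate 2 were 16 of the 54, against 27.7% of all genes at that level. Higher in replicate 1 were 12 of the 54, against 26.9%. The median log2 ratio of the list was 0.12. Those more than 8-fold apart on log2(TPM + 1) were Acot7, Acot11, Acss2, Cpt1c, Pecr, Fabp7, Abhd5, Ppara and Pparg, higher in replicate 2, and Ppargc1b and Rxrb, higher in replicate 1. Their means ran from 7.13 TPM (Fabp7) to 30.8 TPM (Pecr), and of all genes at 5 to 30 TPM 68.4% were over 2-fold apart. The share of all genes more than 8-fold apart was not counted. Abhd5, the activator of the Pnpla2 lipase, had 0 counts in replicate 1 and 1078 counts in replicate 2. Pnpla2 itself was nearly even over all its transcript models, with 87.4 and 110 TPM on the coding models alone. Ppara, the nuclear receptor known to drive many genes of beta-oxidation, had 1.83 and 30.3 TPM, and Ppargc1b, a coactivator, 55.8 and 3.91 TPM. Listed at 0 in both libraries were the liver and gut binding proteins Fabp1 and Fabp2, Acsbg2, Acsf2, Acsm5, Slc27a2, Slc22a4, Bbox1, Acad10, Acaa1b, Plin1, Cidec and Ucp3.

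Transcript models were compared within genes. Of the 41 members 10 have 1 listed transcript, and 29 with several had 3 counts or more in both libraries. The transcript with the highest share of the gene's TPM was the same in both libraries for 27 of the 29, and Lpl and Pnpla2 were the exceptions. In 25 of the 29 the leading model was typed protein-coding in both libraries. Transcript types are those of GENCODE M21, a later release than the one the tables were made with, so a type may have changed. Cd36-204 held 54.3% and 54.9% of Cd36, Hadhb-201 64.7% and 66.0% of Hadhb, and Cpt2-201 86.7% and 86.4% of Cpt2, the last in spite of the 6.43-fold difference of the gene.

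Several genes had much of their TPM on models that are not typed protein-coding. For Hadha, Hadha-201 held 51.8% and 53.1% and the short Hadha-204 35.0% and 26.5%, both typed as processed transcripts, and the protein-coding Hadha-205 13.1% and 20.3%. By counts the coding share of Hadha was 27.5% and 36.9%. Its coding TPM was 72.6 in replicate 1 and 71.1 in replicate 2, so that most of the Hadha level above, and nearly all of the difference between the pups, lay on the other models. For Lpl, the coding Lpl-201 led in replicate 1 (73.3%, against 43.1% in replicate 2) and Lpl-203, typed as a target of nonsense-mediated decay, in replicate 2 (56.9%, against 26.7%). Coding Lpl was still over 2-fold apart, at 120 and 250 TPM. Pnpla2-201, of the same type, held 49.5% and 33.9% of Pnpla2, and the coding Pnpla2-202 47.9% and 45.1%. Acacb was read mainly as the intron-retaining Acacb-204 (83.4% and 100%), and its coding models came to 0.974 TPM in replicate 1 and 0 in replicate 2.

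**Figure D4:**
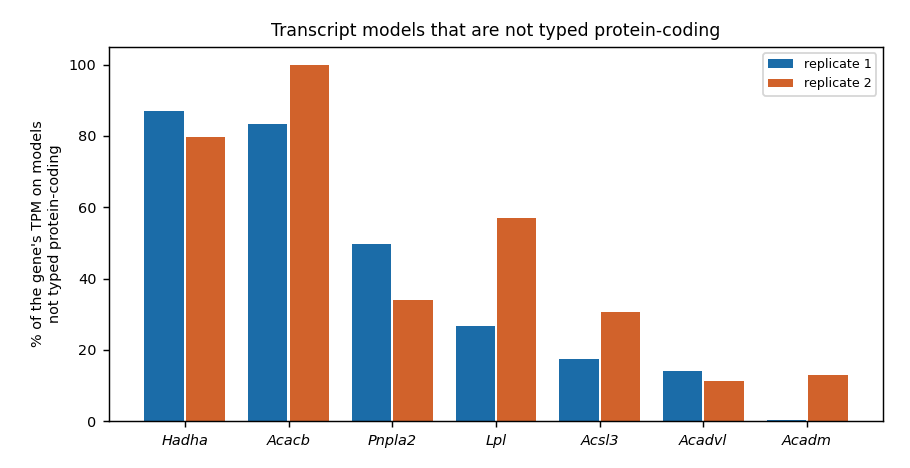
Percent of a gene's TPM on transcript models not typed protein-coding in GENCODE M21, in replicate 1 (blue bars) and replicate 2 (orange bars), for the members read in both libraries where this share was over 10% in either. Hadha and Acacb lie mostly on such models in both libraries, and Lpl stands at 26.7% in replicate 1 and 56.9% in replicate 2.

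Acsl3 shows how the models move a level. Its counts were 3672 in replicate 1 and 4516 in replicate 2, a CPM difference of 1.48-fold, while TPM differed by 2.38-fold. The long coding model Acsl3-205 held 81.7% of the gene in replicate 1 and 32.5% in replicate 2, where the short Acsl3-202 (627 nt, retaining an intron) and Acsl3-204 (502 nt) held 30.4% and 29.2%. The mean effective length of the gene was 2498 nt in replicate 1 and 1503 nt in replicate 2. For Acsl4 the shares of the models changed without such an effect on the level. Acsl4-202 held 59.8% of the gene in replicate 1 and 100% in replicate 2, from 922 and 923 counts, which are not scaled to library size. The gene differed by 1.36-fold in TPM and 1.39-fold in CPM. The other 11 of the 12 genes over 2-fold apart in TPM were also over 2-fold apart in CPM and in TPM of coding models alone.

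Sequence shared with other genes was slight for most members. No 100-base window of 29 of the 41 genes occurs in another gene of the tables, and over 10% of the windows do so in 5. Fabp3 has the highest share, 21.7%, all of it with the pseudogene Fabp3-ps1, which was listed at 117 and 163 TPM from 2104 and 2483 counts, against 120880 and 138132 counts for Fabp3. Slc22a5 shares 12.9% with Slc22a21, listed at 0.229 and 0 TPM. Overlapping genes on the other strand, such as Zcchc17 beside Fabp3 (15.2 and 28.3 TPM) and Myd88 beside Acaa1a (2.98 and 26.5 TPM), cannot be separated without a strand rule, which is not given in the sources used here. For Acaa1a, higher in replicate 2, Myd88 was higher there as well; its part in that value was not tested.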

How the data were processed

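RNA was sequenced from 2 hearts in 1 group. The authors deposited a gene and a transcript table per library, without pooling. Per the file headers, these hold expected counts (estimated reads, not always whole), posterior mean counts, the posterior SD of the count (a score of certainty), TPM, and each transcript's percent of its gene. The deposited text notes name mm10 and GENCODE M4; the aligner, quantifier and strand handling: not given in the sources used here. The effective length of the deposited transcripts is the length minus 99 bases, per the tables themselves.

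Deposited TPM was rescaled to 1000000 over the 43346 mouse genes, leaving out spike-ins (2.40% and 1.27% of the counts) and the rows under a bare number. CPM are expected counts per 1000000 on mouse genes. Gene names, positions and transcript types were taken from GENCODE M21, also on mm10 (42462 genes matched); 168 of the 188 deposited transcripts of the members have the same length there and 2 are absent. Log2 values use a pseudocount of 1, folds are ratios of TPM + 1, genes needed a mean of 5 TPM to be called over 2-fold apart, and read means 1 TPM or more. With 1 group and 2 libraries no test was made, and levels are the mean ± SD.

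The members and the gene lists were chosen with earlier results of these data known. All members are named. Of the other fatty acid genes, the text names the 8 with the highest mean, those more than 8-fold apart with a mean of 5 TPM or more, and those at 0 in both libraries; Slc25a20 and Acaca were named for their place beside members, once their values had been seen. The alternatives were another pseudocount (0.1), the filters, CPM or expected counts, posterior means, TMM factors (edgeR 4.0.16) and size factors (DESeq2 1.42.0) from rounded expected counts, the denominator and each library left out. Coding-transcript TPM was added after the data were seen. The call of genes over 2-fold apart was also run on simulated data. These held changes of set size in some genes, and counting error was their only noise. That checks the calculation only and says nothing about differences from the amplification, the aliquot or the pup. Calculations used Python 3.11.15, numpy 2.4.6, pandas 2.3.3 and R 4.3.3.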

Additional observations from a re-analysis of the deposited data

How the results depend on the processing

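With 2 libraries an SD is rough, and 3 counts of a library limit what can be seen of a gene at 0. Over the alternatives run, 36 to 38 members were read, 11 to 13 lay over 2-fold apart, and their median log2 ratio was 0.07 (DESeq2 factors) to 0.29 (coding transcripts, an alternative chosen after seeing the data). The thirteenth, with no filter, is Acad9. Summed shares moved by more than 1 SD in places. As a share of expected counts they were 2.04% for all members, 0.117% for activation, 0.150% for the carnitine shuttle, 1.05% for oxidation and 0.0349% for the lipid store. Without mitochondrially encoded genes in the total they were 2.07% for all, 0.0709% for the carnitine shuttle, 0.939% for oxidation and 0.0267% for the lipid store. Posterior mean TPM gave 0.805% for oxidation. Of the pairs, Etfa over Etfdh turned to −0.38 in expected counts, Acacb over Acaca was −0.68 without replicate 1 and 1.69 without replicate 2, and Plin2 over Plin5 was 1.43 without replicate 1 and −0.65 without replicate 2. Expected counts are not divided by length, and Etfdh has the longer effective length (2207 against 1274 nt in replicate 1). In expected counts Fabp4 over Fabp5 (1.56) and Acadvl over Acad9 (10.73) no longer passed the rule and Acacb over Acaca (2.74) did. A single library left gives no SD, no count over 2-fold apart and no ratio between libraries, and a summed share cannot then move by 1 SD, so it says nothing about stability. No paired analysis was possible because there is 1 group.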
